A study of Mus musculus with 6 samples.

Results

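Alpi, Akp3 and Alpl, the 3 alkaline phosphatase genes examined here, were chosen by symbol from the 32285 genes of the count tables, and their RNA was followed in marker-gated cells of the mouse small intestinal epithelium. The cells came from 3 control littermates, which carried floxed HuR alleles without Cre (HuR fl/fl, Cre-, given as wild-type in the labels), and from 3 IE-HuR-/- mice, in which the same floxed alleles were combined with villin-Cre. All mice were of C57BL/6 background, matched for age and gender and between 6 and 8 weeks old. The villin promoter drives Cre in intestinal epithelial cells, so that only the epithelium was targeted. The methods state that food was withheld for 24 h before experiments, whereas the labels give normal feeding, and neither says which segment of the small intestine each suspension came from. Each mouse gave 1 droplet library of the 10X Genomics platform, where molecules of RNA are counted by their tags (unique molecular identifiers, UMIs).

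Alkaline phosphatases of the intestine sit on the brush border of enterocytes, held by a glycosylphosphatidylinositol (GPI) anchor, and are partly released into the lumen. They remove phosphate from bacterial lipopolysaccharide (LPS) and from nucleotides, and are used as a marker of the mature enterocyte. In the mouse, Alpi encodes the form found along the gut, Akp3 the duodenal form, and Alpl the tissue-nonspecific form best known from bone and liver.

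Alpi (ENSMUSG00000079440) and Akp3 (ENSMUSG00000036500) are neighbours on chromosome 1. In GENCODE vM21 (GRCm38, the same build as the mm10 of the labels), Alpi lies on the minus strand at chr1:87098002-87101606 and Akp3 on the plus strand at chr1:87124973-87127912. They are read away from each other, with 23366 bases between them. Alppl2, a further member of the family that is known from early embryos and the placenta, lies 8073 bases beyond Alpi. Alpl (ENSMUSG00000028766) lies apart, at chr4:137741733-137796384 on the minus strand. The coding sequences of Alpi and Akp3 were identical at 80.2% of aligned positions, against 60.4% between Alpi and Alpl. Of the windows of 50 bases in the Alpi transcript, 55 of 2288 also occurred in a transcript of another gene. In the Akp3 transcript these were 35 of 1631. Where the counted reads lie relative to these windows was not examined, so that the share of reads affected is not known. The Akp3 model of GENCODE vM21 holds coding sequence alone, 1680 bases, and the Alpi model 2337 bases with a 3′ UTR of 601 bases.

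The 250 bases before the RefSeq start of each gene are shown because both genes are read in the same cells while their RNAs differed in level, in region and in their change between the labels. The windows are chr1:87101607-87101856 on the minus strand for Alpi and chr1:87124704-87124953 on the plus strand for Akp3 (RefSeq, GRCm38.p6), written 5′ to 3′, with capitals for runs of 10 or more bases that occur in both windows.
Alpi: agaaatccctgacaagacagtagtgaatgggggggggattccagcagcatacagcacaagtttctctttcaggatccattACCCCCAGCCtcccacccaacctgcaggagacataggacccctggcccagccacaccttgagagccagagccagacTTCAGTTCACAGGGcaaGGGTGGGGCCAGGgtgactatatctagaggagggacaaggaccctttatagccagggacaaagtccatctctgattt
Akp3: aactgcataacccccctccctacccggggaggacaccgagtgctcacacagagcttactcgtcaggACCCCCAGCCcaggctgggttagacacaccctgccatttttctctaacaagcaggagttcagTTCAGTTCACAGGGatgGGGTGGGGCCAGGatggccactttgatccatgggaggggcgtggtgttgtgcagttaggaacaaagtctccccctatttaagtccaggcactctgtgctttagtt

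The windows were identical at 52.5% of aligned positions and shared 3 runs, which together made 37 bases of each. The search covered 32851 promoter windows of the same length on either strand, called all windows below, which did not cover every chromosome. The run TTCAGTTCACAGGG occurred in 2 of these, namely those of Alpi and Akp3. GGGTGGGGCCAGG, which starts 3 bases after it in both, occurred in 15 windows (0.0457%), that of Alppl2 included, and ACCCCCAGCC in 100 (0.304%). A search on both strands for CAAAGTCCA, a binding motif of HNF4 factors, matched the Alpi window and 0.384% of all windows, and TATAAA matched the Alpi window and 12.4% of all windows. Neither set of letters was in the Akp3 window, and neither window held CCACACCC, a motif of KLF factors found in 3.20% of all windows. The same was true of TTTATG, a motif of CDX factors (10.8% of windows), and of AGATAA, which GATA factors bind (9.99% of windows). Only these exact letters were searched. Variants of a motif were not, so that a missing match does not show that a window lacks a site for the factor.

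The 6 libraries held 60706 barcodes and between 59518012 and 91818560 UMIs each, and 30840 barcodes had at least 2000 UMIs and 200 genes. Barcodes were placed in a class by the share of their UMIs on marker lists that hold no member of the family, with enterocytes needing 2% on a list of 12 genes that includes Fabp2, Rbp2 and Sis. This gave 14534 enterocytes, between 1825 and 3520 per library, with 34655021 to 51860453 UMIs per library. The gate is a limit on a range, with 1539 enterocytes at 2 to 2.5% and 1840 unclassed barcodes at 1.5 to 2%. Any pair of libraries shared between 22 and 44 barcodes, at most 0.443% of the smaller one. Elavl1, the gene of HuR, was at 29.7, 30.9 and 28.0 CPM (UMIs as counts-per-million of all UMIs of the class in that library) in control enterocytes and at 30.04, 30.5 and 31.1 CPM in those of the libraries labelled IE-HuR-/-. Elavl1 RNA was thus not lower under that label, and its log2 fold change was 0.25 (SE, the standard error, 0.0512, adjusted p = 0.000104 by edgeR's quasi-likelihood test), and every direction given below rests on the labels. Whether the counted reads lie within the deleted part of the gene was not examined, so that this value is no check of the deletion or of the protein.

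By counted UMIs, Alpi was the main alkaline phosphatase RNA of the gated epithelial cells, Akp3 was a minor one, and Alpl was almost absent from enterocytes. Alpi was at 934, 874 and 1000.5 CPM in control enterocytes and at 767, 739 and 746 CPM in those labelled IE-HuR-/-. The control libraries were all higher, and the groups did not overlap. The share of all genes without overlap was not counted. The means were 936 ± 63.5 and 751 ± 14.4 CPM (SD, n = 3 each). The median log2 fold change over all genes was -0.21 without TMM scaling and -0.01 with it, a scaling that sets the bulk of genes to no change. With TMM scaling Alpi fell by 0.12 on the log2 scale (SE 0.0472, edgeR adjusted p = 0.0300), and by 0.32 without TMM scaling. Its call was lost when control replicate 3 was left out (-0.079, edgeR adjusted p = 0.178), and likewise for replicate 2 (-0.11, 0.0796) or 3 (-0.10, 0.118) of the label IE-HuR-/-.

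Akp3 differed far more. It was at 37.1, 25.9 and 36.3 CPM in control enterocytes and at 3.84, 2.84 and 3.74 CPM in those labelled IE-HuR-/-, from 1715, 1343 and 1395 UMIs against 133, 110 and 145 UMIs. The lowest control library was several times above the highest of the other label. The fall was 8.29-fold, a log2 fold change of -3.05 (SE 0.236, edgeR adjusted p = 0.000353), and the call held under all 20 alternatives, with values from -3.89 to -2.12. Among the 4718 genes with a control mean of at least 20 CPM, 3 had a lower log2 fold change than Akp3. Both tested members were called, in a fit that called 60.8% of 12215 genes and 30.4% of them as lower, so that a call alone sets neither gene apart.

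The UMIs of Alpi and Akp3 were set side by side as a share. This is a share of counted UMIs and need not equal that of molecules, since reads outside the annotated exons are not counted. The Akp3 model of GENCODE vM21 has no UTR, and which gene models lie behind the deposited counts was not examined. Akp3 made 3.82%, 2.88% and 3.50% of the Alpi plus Akp3 UMIs in control enterocytes, with exact 95% intervals of 3.65 to 4.005%, 2.73 to 3.04% and 3.32 to 3.68%. Under the label IE-HuR-/- the share was 0.498%, 0.382% and 0.499%, with intervals of 0.417 to 0.590%, 0.314 to 0.460% and 0.422 to 0.587%. The intervals cover counting error only. The mean share was 3.40 ± 0.480% against 0.460 ± 0.0672% (SD, n = 3 each), a difference of -2.94 percentage points (p = 0.1 in an exact two-sided permutation of labels, which cannot go lower with 3 libraries against 3).

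Akp3 was held by few cells. A UMI of it was found in 13.9%, 11.9% and 14.4% of control enterocytes and in 2.67%, 2.62% and 3.17% of those labelled IE-HuR-/-, at median depths between 9191 and 14672 UMIs per cell. T or NK cells, which should lack the gene, had one in 2.44 to 3.47% and 0.110 to 0.365% of cells, at medians of 4351 to 5669 UMIs. With every enterocyte thinned to 2000 UMIs the shares were 4.69%, 4.01% and 4.16% against 0.655%, 0.597% and 0.420%. In control libraries 2.02 to 3.78% of enterocytes had at least 5 Akp3 UMIs, and these cells held between 61.5 and 77.4% of all Akp3 UMIs. Under the label IE-HuR-/-, 7, 5 and 4 cells reached 5 UMIs. Of the enterocytes with an Akp3 UMI, 93.4 to 98.5% per library also had one of Alpi, which was itself found in 68.7 to 79.3% of enterocytes and in 18.6 to 45.4% of T or NK cells.

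Levels of regional genes moved with the label, and whether the cells came from other places or changed these RNAs in place cannot be told apart here. Of 12 proximal genes 7 fell and 2 rose, with a median log2 fold change of -0.37, and of 12 distal genes 9 rose and none fell, with a median of 0.62. Over all genes the median was -0.01, with 30.4% called lower and 30.4% called higher. Among the proximal genes Creb3l3 and Fabp1 were those that rose. Pdx1, a transcription factor of the duodenum, was at 9.79, 7.58 and 10.2 CPM in control enterocytes and at 3.03, 2.47 and 3.12 CPM in the others. S100g, a calcium-binding protein of the duodenum, fell from 234 ± 64.5 to 5.88 ± 0.871 CPM, and Slc40a1, the iron exporter, from 47.6 ± 12.6 to 13.6 ± 0.922 CPM. Fabp6, the ileal bile acid-binding protein, rose from 772 ± 27.3 to 3168 ± 197 CPM, and Slc10a2, the ileal bile acid transporter, from 51.8 ± 2.37 to 116 ± 20.3 CPM (SD, n = 3 each). Adh6a, an alcohol dehydrogenase of the proximal list, fell from 549 ± 30.5 to 348 ± 10.3 CPM, and Tmigd1, of the distal list, rose from 308 ± 7.64 to 540 ± 51.6 CPM. The part of these differences in the Akp3 result was not tested as a cause, and the members were measured again within cells split by these genes, a division chosen after the data had been seen.

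Akp3 was concentrated in enterocytes with a Pdx1 UMI. In the control libraries 283, 270 and 217 such cells had 147, 110 and 141 CPM of Akp3, against 15.2, 13.9 and 12.7 CPM in enterocytes without one. They made 10.4%, 7.67% and 11.9% of enterocytes and held 65.8%, 53.2% and 71.4% of the Akp3 UMIs. In the libraries labelled IE-HuR-/-, 84, 73 and 83 enterocytes had a Pdx1 UMI (3.93%, 3.35% and 3.87%), with 34.2, 22.8 and 23.5 CPM of Akp3 against 1.87, 1.72 and 2.30 CPM in the rest. Cells with a Pdx1 UMI were also deeper, with median totals of 18742 to 29728 UMIs against 8711 to 12791 in the rest.

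**Figure D1:**
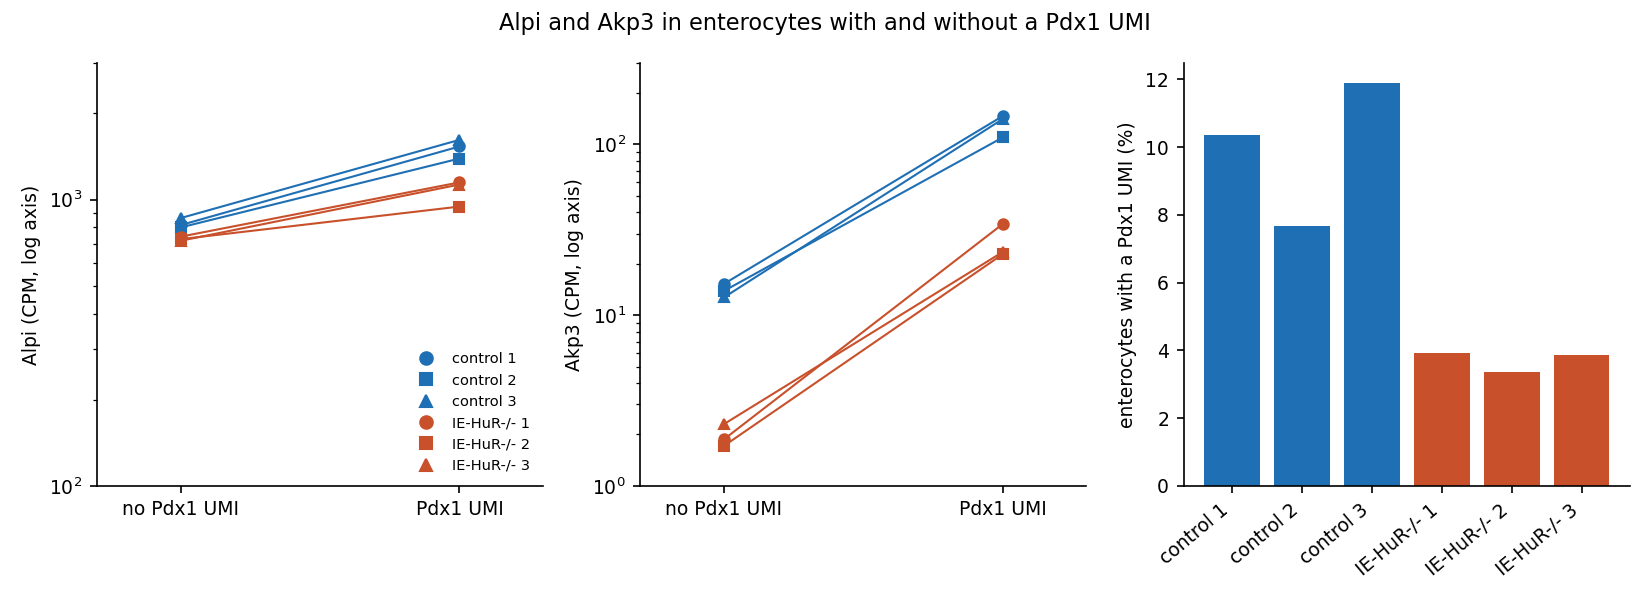
Levels of Alpi and Akp3 (CPM, log axes) in enterocytes without and with a Pdx1 UMI, and the percentage of enterocytes with such a UMI, with 1 symbol or bar per library. Akp3 lay between 110 and 147 CPM in control cells with a Pdx1 UMI and between 22.8 and 34.2 CPM in those labelled IE-HuR-/-.

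Akp3 was lower under the label on both sides of this division. In cells with a Pdx1 UMI its log2 fold change was -2.21 (SE 0.174, edgeR adjusted p = 5.14e-06), where 24.2% of 9035 genes were called. In cells without one it was -2.63 (SE 0.104, edgeR adjusted p = 2.54e-22), where 59.5% of 12112 genes were called. Both values were closer to 0 than the -3.05 of all enterocytes. Since Pdx1 itself differed between the labels, a cell with a Pdx1 UMI need not stand for the same place in the gut under both. Slc40a1 gave a like picture. Enterocytes with a UMI of it had 141, 100.2 and 133 CPM of Akp3 in the control libraries, and those without had 9.39, 9.85 and 10.8 CPM. Under the label IE-HuR-/- cells with a Slc40a1 UMI had 19.5, 12.4 and 16.0 CPM, and those without had 0.989, 0.635 and 0.892 CPM. Cells with a Slc10a2 UMI had 12.6, 12.0 and 20.4 CPM of Akp3 in the control libraries and 1.73, 2.11 and 1.58 CPM in those labelled IE-HuR-/-. T or NK cells, which should lack the gene, had 4.84 to 8.10 CPM in the control libraries and 0.206 to 0.769 CPM in the others. The part of such RNA in enterocytes without a Pdx1 UMI or with a Slc10a2 UMI was not tested. In cells with a Fabp6 UMI, 22.0 to 28.5% of control and 61.3 to 62.6% of the other enterocytes, the log2 fold change of Akp3 was -2.12, and in cells without one it was -3.89. Control Akp3 was at 24.2, 17.0 and 18.5 CPM in cells with a Fabp6 UMI and at 42.5, 30.5 and 42.2 CPM in the rest. Under the label IE-HuR-/- the order was reversed. Akp3 was at 4.25, 3.05 and 4.64 CPM in cells with one and at 2.90, 2.36 and 1.64 CPM in the rest. The values in the rest came from 31, 28 and 19 Akp3 UMIs. Under that label cells with a Fabp6 UMI had median totals of 12883 to 13832 UMIs, against 6324 to 7274 in the rest. Cells with a UMI of Slc40a1 or Slc10a2 were also deeper than those without, in every library. The part of depth was not tested.

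Alpi followed the same division less steeply. It was at 1533, 1391 and 1617 CPM in control enterocytes with a Pdx1 UMI and at 815, 799 and 862 CPM in those without. In the libraries labelled IE-HuR-/- it was at 1149, 945 and 1129 CPM and at 742, 728 and 718 CPM. Alpi fell in the cells with a Pdx1 UMI, by 0.39 on the log2 scale (SE 0.0780, edgeR adjusted p = 0.000750). In the cells without one the log2 fold change was 0.02 (SE 0.0443, edgeR adjusted p = 0.700). The CPM values, which are not TMM-scaled, did not overlap there, but the share of all genes without overlap was not counted. The test of the difference between both kinds of cell was not run.

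**Figure D2:**
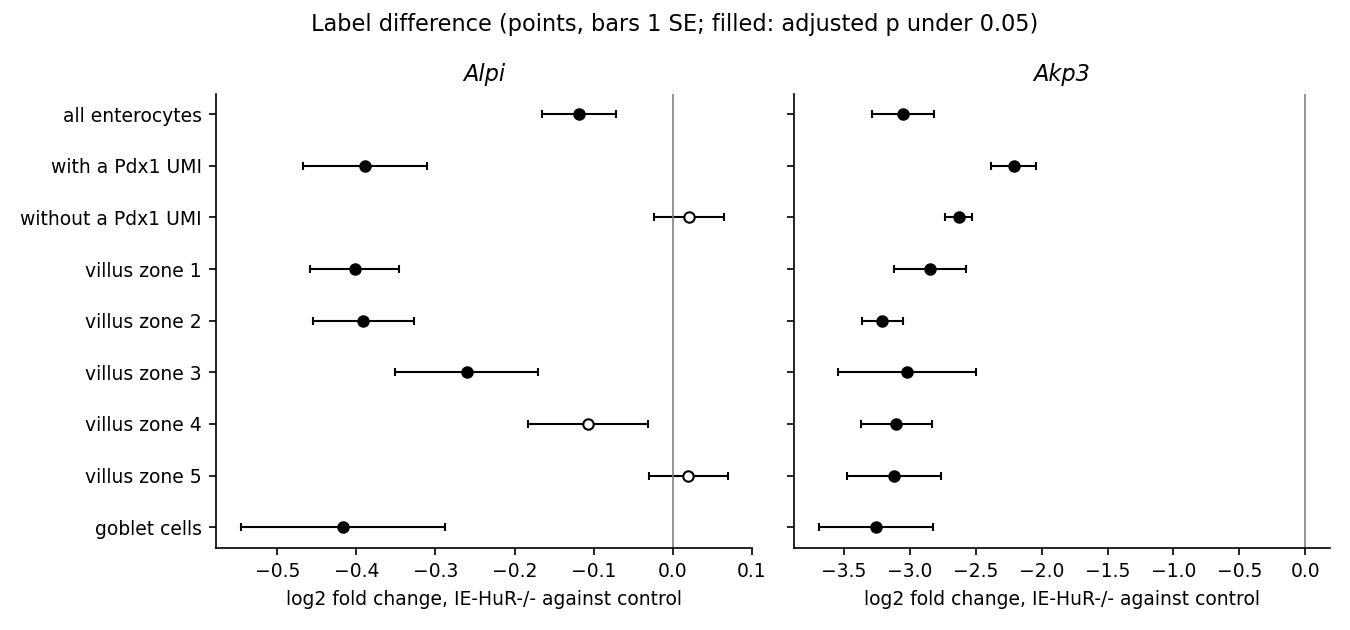
Log2 fold change of Alpi and Akp3, IE-HuR-/- against control, in all enterocytes, in enterocytes split by a Pdx1 UMI, in 5 villus zones and in goblet cells, after TMM scaling. Points are edgeR estimates, bars 1 SE, and filled points have an adjusted p under 0.05. Akp3 lay between -3.26 and -2.21 throughout, and Alpi between -0.42 and 0.02.

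To place the RNAs along the villus, the enterocytes of each library were divided into 5 zones of equal cell number by a score of 12 top landmarks (Ada, Apoa4, Nt5e and others) minus 12 bottom landmarks (Gpx2, Oat, Reg1 and others), none of them a member. When zones were made from 1 of the landmark lists alone, all 12 genes of the list left out changed in the zone direction in all 6 libraries. The top zone was deeper, with median totals of 15453 to 24153 UMIs per cell against 7084 to 8950 in the bottom zone, and had more mitochondrial UMIs, 11.1 to 13.99% against 0.907 to 1.97%. These differences moved with the zone under both labels, and their part was not tested.

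Alpi rose from the bottom to the top of the villus in each of the 6 libraries. In the control libraries it was at 698, 619 and 646 CPM in the bottom zone and at 1273, 1194 and 1341 CPM in the top zone. In the libraries labelled IE-HuR-/- it was at 462, 470 and 446 CPM in the bottom and at 1078, 1098 and 1114 CPM in the top zone. All top zones lay above all bottom zones. The zones were compared in a fit with the library as a block. The log2 fold change of the top against the bottom zone was 1.499 (SE 0.0749, edgeR adjusted p = 1.48e-17). In that fit 83.3% of 10716 genes were called. Without TMM scaling the value for Alpi was 1.11. The median over all genes was -0.43 without that scaling and -0.05 with it.

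The rise of Alpi was steeper in the libraries labelled IE-HuR-/- in the fit over all zones, but not under every zone score. The log2 difference between top and bottom was 1.25 (SE 0.0587) in the control libraries and 1.74 (SE 0.0600) in the others. The test of this difference gave 0.48 (SE 0.0824, edgeR adjusted p = 9.17e-06), where 23.0% of genes were called. It was 0.15 (adjusted p = 0.433) with zones from top landmarks only and 0.35 (0.0731) with each cell thinned to 2000 UMIs. Without TMM scaling it was 0.30 (edgeR adjusted p = 0.00452). Other values moved by label within zones, landmarks of the score included. In zone 4 Ada was at 726, 744 and 1316 CPM in the control libraries and at 3203, 2855 and 2357 CPM in the others. In zone 2 Reg1 was at 589, 595 and 602 CPM against 65.4, 80.1 and 186 CPM. A zone number thus need not stand for the same place on the villus under both labels. A Pdx1 UMI was found in 13.2 to 17.5% of control and 5.13 to 6.07% of the other cells in the bottom zone, and in 4.83 to 9.32% and 1.41 to 4.21% in the top zone. Fabp6 was at 720 to 1193 CPM against 5717 to 6825 CPM in the bottom zone, and the zone 4 median of mitochondrial UMIs was 11.3 to 12.5% in control libraries against 13.04%, 3.804% and 4.51%. The part of these in the Alpi result was not tested. Between the labels, Alpi fell in the 3 lower zones, with log2 fold changes of -0.40 (SE 0.0563), -0.39 (SE 0.0638) and -0.26 (SE 0.0905) and edgeR adjusted p values of 3.60e-08, 1.38e-06 and 0.0323. In zones 4 and 5 it was -0.11 (SE 0.0755) and 0.02 (SE 0.0497) after TMM scaling, with edgeR adjusted p values of 0.260 and 0.754. The CPM values of the labels did not overlap there, at 946 to 1103 in control libraries against 781 to 884 in zone 4. In zone 5 they were 1194 to 1341 against 1078 to 1114. These CPM values are not TMM-scaled, and the share of all genes without overlap was not counted. The fits called 38.1%, 40.4%, 41.2%, 44.7% and 54.8% of genes in zones 1 to 5.

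**Figure D3:**
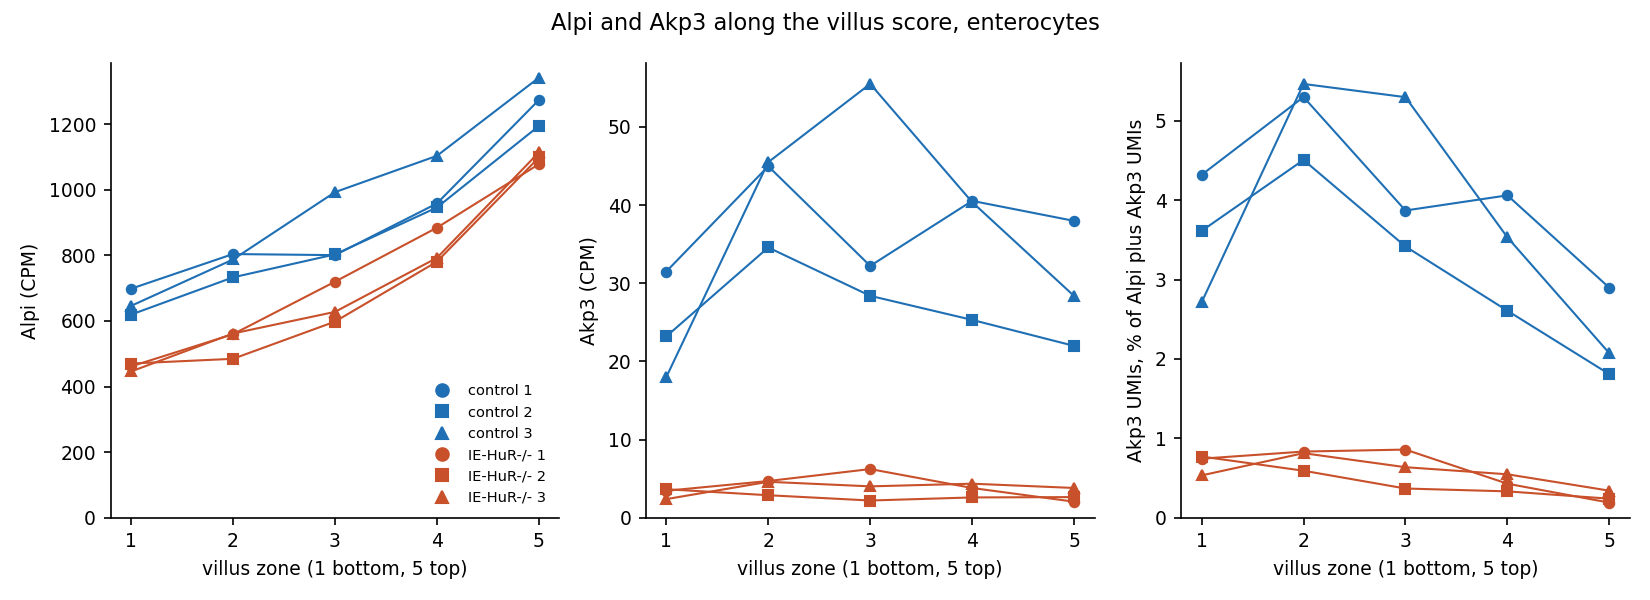
Alpi and Akp3 (CPM) and the Akp3 percentage of Alpi plus Akp3 UMIs in 5 villus zones of enterocytes, from the bottom (1) to the top (5), with 1 line per library. Alpi reached its highest level in the top zone of each library, between 1078 and 1341 CPM, whereas Akp3 had no common course and its share was lower in the top than in the bottom zone of all 6 libraries.

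Akp3 had no stable course along the villus. In the control libraries it was at 31.5, 23.2 and 18.0 CPM in the bottom zone and at 37.98, 22.0 and 28.4 CPM in the top zone, and its highest zone was zone 2 in control replicates 1 and 2 and zone 3 in control replicate 3. In the libraries labelled IE-HuR-/- it stayed between 2.06 and 6.24 CPM in all zones, from 13 to 43 UMIs per zone. The fit gave a log2 difference of 0.50 between top and bottom (SE 0.174, edgeR adjusted p = 0.0105), which was 0.17 (0.374) without TMM scaling. The sign turned with the landmarks. With zones from top landmarks only the log2 difference was 2.22, and with zones from bottom landmarks only it was -2.71. In the latter, control Akp3 ran from 57.3, 37.3 and 52.1 CPM in the bottom zone to 4.33, 6.64 and 3.95 CPM in the top zone. The regional makeup of the zones differed too, with a Pdx1 UMI in 13.2 to 17.5% of control enterocytes of the bottom zone and in 4.83 to 9.32% of those of the top zone, and its part was not tested. The difference between labels held in each zone, with log2 fold changes from -3.21 to -2.85 and edgeR adjusted p values of at most 0.0121. A difference in the zone course between labels was not found for Akp3 (-0.18, SE 0.607, edgeR adjusted p = 0.877), at few UMIs per zone.

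The share of Akp3 among Alpi plus Akp3 UMIs was lower in the top than in the bottom zone of all 6 libraries, by 0.857 percentage points on average (SD 0.617, n = 6, two-sided exact sign-flip permutation test, p = 0.0313, the smallest that 6 libraries can give). In the control libraries it was 4.32%, 3.61% and 2.71% in the bottom and 2.90%, 1.81% and 2.07% in the top zone, with the highest share in zone 2 of each, at 5.30%, 4.51% and 5.46%. In the libraries labelled IE-HuR-/- it was 0.745%, 0.772% and 0.534% in the bottom and 0.191%, 0.241% and 0.342% in the top zone. With zones from top landmarks only, the difference was 0.0631 percentage points (exact p = 0.875), so that the lower share at the top rested on the bottom landmarks. In T or NK cells, which should lack both genes, the share was 7.03%, 4.93% and 7.04% in the control libraries. Under the other label it was 1.29%, 0.671% and 0.391%, from 3, 2 and 1 Akp3 UMIs. The part of such RNA in the zone shares was not tested.

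The genes with the course most like that of Alpi were Mia2, an exit factor of the endoplasmic reticulum, Otud7b, a deubiquitinase, Pfkfb4, an enzyme that tunes glycolysis, Ceacam18, an adhesion family member, and Trim25, a ubiquitin ligase. Their Pearson correlations with Alpi were 0.988, 0.987, 0.986, 0.986 and 0.986 over the 30 sums of library and zone, centred within each library, among 2567 genes with a mean of at least 50 CPM. For Akp3, genes among the closest were Pklr (0.645), a pyruvate kinase, March8 (0.636), a ubiquitin ligase, Igf2r (0.631), a sorting receptor, and Tbk1 (0.630), a kinase of innate immunity. The sums share depth and library, and the correlation between Alpi and Akp3 themselves was 0.000822. Between the top and bottom zones 83.3% of genes were called, so that a course like that of Alpi is not rare. Under the label IE-HuR-/- each sum held 13 to 43 Akp3 UMIs, so that counting noise enters the correlations of Akp3.

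In the secretory classes Alpi was at lower levels than in enterocytes of the same library. In goblet cells it was at 624, 566 and 515 CPM in the control libraries and at 404, 438 and 282 CPM in the others, from 117 to 255 cells per library. It was at 355, 405 and 346 CPM and at 157, 266 and 401 CPM in enteroendocrine cells. In tuft cells it was at 297, 234 and 265 CPM and at 10.2 (2 UMIs in 12 cells), 219.6 and 122.6 CPM. In T or NK cells, which should lack the gene, it was at 107, 151 and 64.0 CPM and at 58.7, 61.7 and 52.4 CPM. Control tuft cells under the enterocyte limit of 2% lay near that level, at 111, 130 and 55.7 CPM, and those above it had 570, 567 and 785 CPM. Control enteroendocrine cells had 185, 220 and 184 CPM under the limit and 714, 647 and 669 CPM above it. The part of enterocyte RNA in these values was not tested. The progenitors, 8 to 31 cells per library, had between 23.4 and 138 CPM, a range that overlaps that of the T or NK cells. Paneth cells were 0 to 2 per library and gave no comparison.

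**Figure D4:**
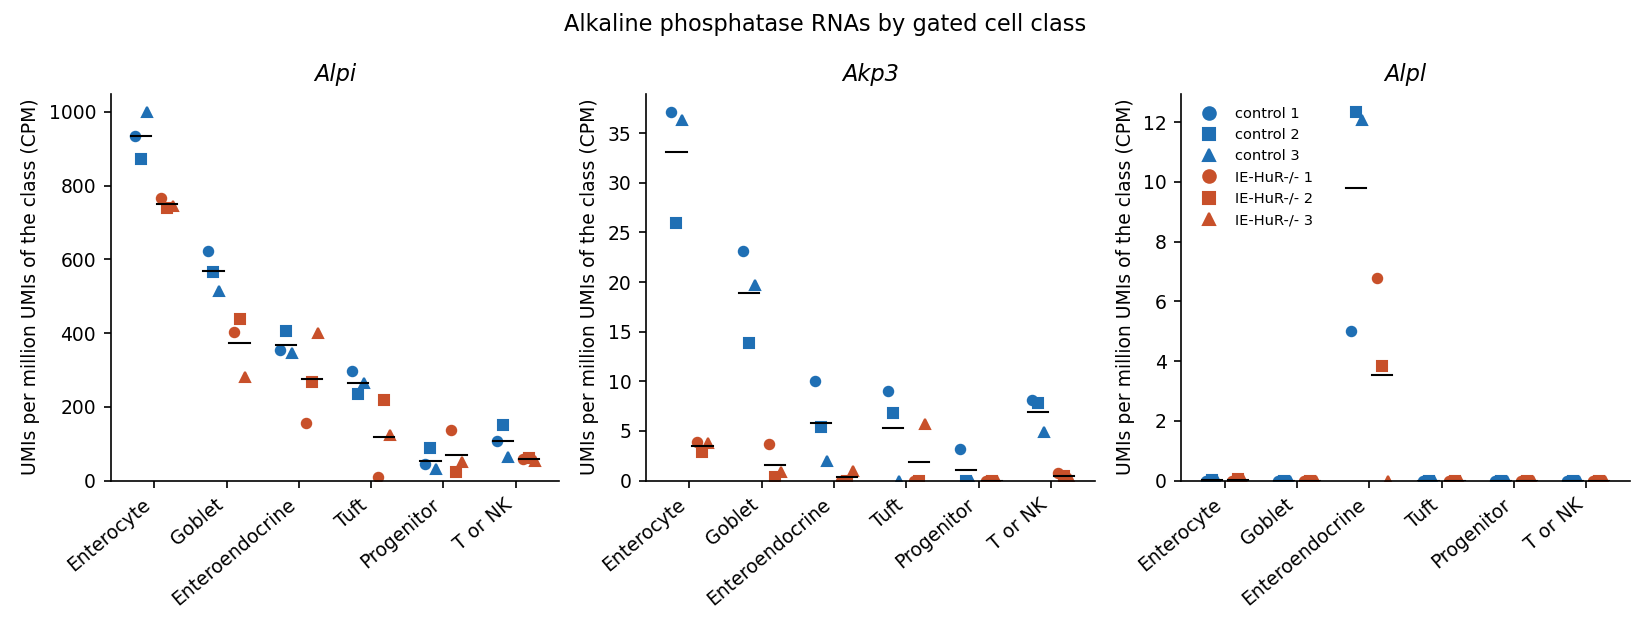
Levels of Alpi, Akp3 and Alpl (CPM of the class) in the gated cell classes, with 1 point per library and a black bar at the mean of each label. Alpi and Akp3 were highest in enterocytes, and Alpl was found at up to 12.3 CPM in enteroendocrine cells.

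In goblet cells Akp3 fell from 23.2, 13.8 and 19.7 CPM to 3.69, 0.318 and 0.837 CPM, from 125, 75 and 87 UMIs to 14, 1 and 3 UMIs, with a log2 fold change of -3.26 (SE 0.435, edgeR adjusted p = 0.000207). Akp3 passed the filter on low counts in goblet cells through the control libraries, where it was high. Its call there thus adds no support to the counts themselves. The call held when any 1 library was left out, with values from -4.73 (IE-HuR-/- replicate 1 absent) to -2.82 (IE-HuR-/- replicate 2 absent). Alpi fell there by 0.42 (SE 0.129, edgeR adjusted p = 0.0238), and both tested members were called where 27.0% of 9056 genes were. The call of Alpi was lost without control replicate 1 (-0.36, edgeR adjusted p = 0.107), control replicate 2 (-0.40, 0.0765) or IE-HuR-/- replicate 3 (-0.26, 0.0747). Enterocyte markers moved with these values. Goblet cells under the enterocyte limit of 2% had 195, 258 and 130 CPM of Alpi in the control libraries, and those above it had 915, 819 and 759 CPM. Akp3 was at 5.96, 12.6 and 8.73 CPM in the control goblet cells under the limit and at 34.8, 14.8 and 26.6 CPM in those above it. Cells under the limit made 64.5 to 68.6% of control goblet cells and 74.4 to 79.0% of the others, and the part of enterocyte RNA in the goblet result was not tested. T or NK cells had 8.10, 7.82 and 4.84 CPM of Akp3 in the control libraries and 0.769, 0.417 and 0.206 CPM in the others. These came from 31, 32 and 14 UMIs against 3, 2 and 1 UMIs, so that Akp3 passed the filter through the control libraries. The log2 difference was -3.93 (SE 0.470, edgeR adjusted p = 9.08e-05), where 3.06% of 10832 genes were called. Akp3 of the control goblet cells under the limit thus lay near the level in cells that should lack the gene, and the difference between labels had the same direction there. Akp3 was not tested in enteroendocrine, tuft or progenitor cells, where no library had more than 14 UMIs, and the label difference of Alpi did not pass the test in them (edgeR adjusted p between 0.723 and 0.957).

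Alpl stood apart from the other members in its cell type. In enterocytes it had 0, 1 and 0 UMIs in the control libraries and 0, 2 and 1 UMIs in the others, so that its level in a library at 0 was at most 0.0650 to 0.0866 CPM, the level of 3 UMIs, and it entered no test. Enteroendocrine cells, the hormone cells of the gut, held 49 of the 62 Alpl UMIs of all barcodes past the depth limits, with 7, 16 and 18 UMIs in the control libraries and 4, 4 and 0 UMIs in the others. These 49 UMIs lay in 16 of 281 cells. Goblet, tuft, progenitor and T or NK cells had none.

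Within the enteroendocrine cells, Alpl was found in those led by Gip, the RNA of the glucose-dependent insulinotropic peptide that marks K cells of the proximal gut. Each cell was assigned to the hormone RNA with the most UMIs among 9 (Cck, Gcg, Sct, Tac1, Pyy, Sst, Gip, Ghrl and Nts), a division chosen after the values were seen. Gip led 41 cells, of which 15 had an Alpl UMI (36.6%), and these held 48 of the 49 UMIs. The remaining UMI lay in 1 of 137 cells led by Sct, and none in the cells led by the other hormones, the largest of those groups being the 47 led by Nts. Only 2 of the 49 UMIs were in cells with a UMI of Tph1, the enzyme of serotonin synthesis that marks enterochromaffin cells, although 161 of the 281 cells had one. Under the control label 11 of 28 Gip-led cells had an Alpl UMI, and under the other label 4 of 13. There were 3 to 11 such cells per library, and a difference between labels was not tested.

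**Figure D5:**
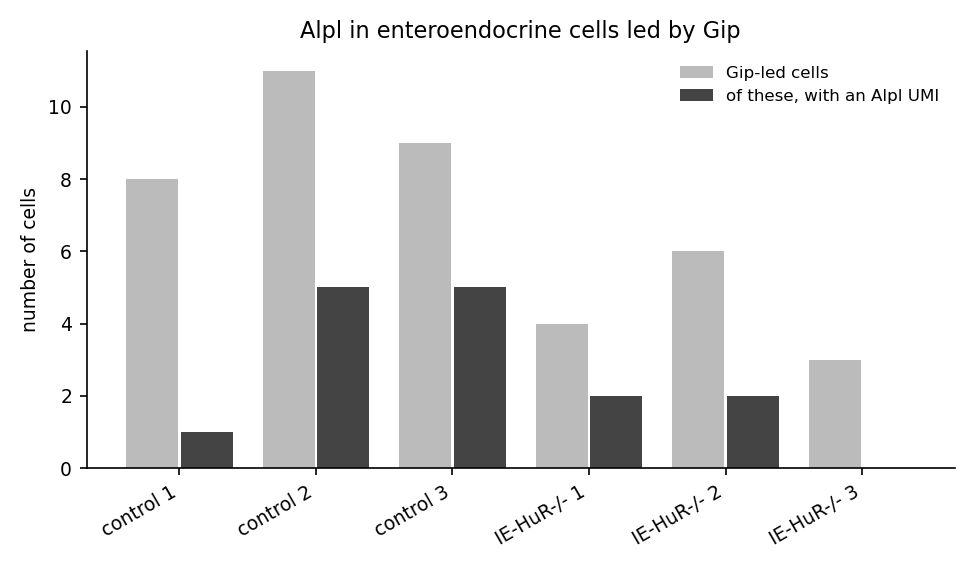
Number of enteroendocrine cells led by Gip in each library (light bars) and the number of these with an Alpl UMI (dark bars). Between 3 and 11 cells per library were led by Gip, and 5 of the 6 libraries had such cells with Alpl, from 1 to 5 each.

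Genes that serve the alkaline phosphatases were described by counts in the fit of all enterocytes, where 60.8% of genes were called. The calls rest on TMM-scaled values, whereas the CPM values of this and the next paragraphs are not scaled. Falls thus look larger and rises smaller in CPM than in the fit. The log2 fold change of Rxra was -0.18 with TMM scaling and -0.38 without it, and that of Pigc 0.34 and 0.14. Alkaline phosphatases reach the surface on a GPI anchor, and of 22 tested genes of GPI anchor synthesis 4 rose and 7 fell, with a median log2 fold change of -0.07 against -0.01 over all genes. Pigp, a subunit of the enzyme that starts the anchor, fell from 23.6 ± 1.16 to 14.9 ± 0.506 CPM, and Mppe1, which remodels the anchor, from 24.05 ± 1.39 to 17.8 ± 0.246 CPM. Dpm1, a subunit of the enzyme that makes the mannose donor, fell from 35.9 ± 1.61 to 28.2 ± 1.15 CPM, whereas Pigc, another subunit of the first enzyme, rose from 27.4 ± 0.395 to 30.2 ± 0.710 CPM. Of the 5 genes of the transamidase that attaches the anchor, 2 rose and 1 fell. The enzymes bind zinc, and of the 3 zinc transporters known to load them Slc30a7 rose and Slc30a5 and Slc30a6 fell. Slc30a5 fell from 68.4 ± 2.05 to 45.3 ± 1.45 CPM, a log2 fold change of -0.40 (SE 0.0450, edgeR adjusted p = 4.03e-09).

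Other surface proteins were counted in the same fit, where 60.8% of genes were called, 30.4% as lower and 30.4% as higher. A list of 15 further surface proteins was drawn up as GPI-anchored, but at least Ceacam20 and Gpa33 span the membrane instead. Of the 15, 9 rose, Ceacam20 and Gpa33 among them, and 3 fell. The median log2 fold change was 0.43 against -0.01 over all genes. Cd55, a brake on complement, rose from 90.9 ± 2.75 to 177 ± 5.71 CPM, and Ly6m from 607 ± 36.3 to 1033 ± 67.4 CPM. Prss30, a serine protease that is also on the distal list, rose from 88.3 ± 4.52 to 139.8 ± 3.10 CPM, and Ceacam20 from 222 ± 5.80 to 276 ± 3.38 CPM. Of 16 other brush border hydrolases 8 rose and 4 fell, with a median of 0.10. The peptidases Dpp4 (636 ± 24.1 to 828 ± 4.46 CPM), Mep1b (802 ± 10.1 to 1057 ± 11.2 CPM) and Anpep (1897 ± 33.0 to 2398 ± 51.9 CPM) rose. Lactase (Lct), which is also a gene of the proximal list, fell from 1216 ± 56.9 to 625 ± 10.4 CPM. Without TMM scaling the list medians were 0.23 for the 15 surface proteins and -0.10 for the hydrolases, so that the sign of the latter turned. Of 7 tested genes on a list of other phosphatases, not all of them acid or alkaline, 4 fell and none rose. The median log2 fold change was -0.19 against -0.01 over all genes. Acp6, a phosphatase of lysophosphatidic acid, fell from 43.5 ± 0.683 to 26.9 ± 0.428 CPM, Acp5 from 64.03 ± 2.59 to 45.5 ± 1.63 CPM and Acp2 from 26.8 ± 1.51 to 20.5 ± 0.857 CPM.

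Substrates and regulators of the enzymes gave mixed counts in the same fit, where 60.8% of genes were called, 30.4% as lower and 30.4% as higher. Of 7 tested genes on a list of nucleotide hydrolases and purinergic receptors, not all of which act in the lumen, 3 rose (Entpd8, Entpd5 and Nudt4) and 1 fell. Entpd8, a nucleotide hydrolase, rose with a log2 fold change of 0.38 (SE 0.0498), and P2ry1, a receptor of ADP, fell from 22.0 ± 0.633 to 12.4 ± 0.842 CPM. Entpd5 had a log2 fold change of 0.11 after TMM scaling and of -0.09 without it. Of 5 tested genes of LPS sensing, Myd88 rose and Cd14 and Ticam1 fell, the last, an adaptor of Toll-like receptors, from 35.9 ± 1.09 to 24.9 ± 0.398 CPM. Of 15 transcription factors tied to Alpi or to enterocyte identity, 3 rose and 4 fell, with a median of -0.04. Cdx2, a factor of intestinal identity, fell from 100.4 ± 2.67 to 60.7 ± 2.87 CPM (log2 fold change -0.53, SE 0.0458, edgeR adjusted p = 1.07e-11), and Hnf4a rose from 286 ± 6.22 to 337 ± 9.87 CPM (0.44, SE 0.0430, 1.68e-10). Rxra, a partner of nuclear receptors, fell from 64.1 ± 3.21 to 49.2 ± 1.31 CPM. Prdm1, a repressor that is high in the immature gut, rose from 20.8 ± 1.03 to 44.6 ± 1.70 CPM (1.299, SE 0.0535, 4.60e-20). The intestinal factors Klf5, Cdx1 and Gata4 did not pass the test, with log2 fold changes of -0.06, 0.02 and 0.05 after TMM scaling. Their CPM values, which are not TMM-scaled, were lower in every library labelled IE-HuR-/- than in every control library. The share of all genes with this pattern was not counted. Without TMM scaling 6248 RNAs were called lower and 1849 higher, so that the pattern alone sets none of these factors apart. Klf5 was at 263 ± 16.8 against 220 ± 4.05 CPM, Cdx1 at 27.7 ± 0.828 against 24.4 ± 0.979 CPM and Gata4 at 58.2 ± 2.21 against 52.4 ± 1.11 CPM.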

How the data were processed

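Per the file headers, the values are whole-number UMI counts that the authors made with Cell Ranger 6.1.2 and deposited without normalization, and no barcode had fewer than 500 UMIs. The labels name Cell Ranger, Seurat, mm10 and a 5′ kit, whereas the methods name another version, a human reference and a 3′ kit. All columns of the tables were used.

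Barcodes with at least 2000 UMIs and 200 genes were gated by marker shares. Barcodes that passed the gates of several classes other than enterocytes (173) were left out, and enterocytes were held under limits on the other lists. Enterocyte markers did not exclude a barcode from another class, so that doublets of such a cell with an enterocyte could remain. No doublet caller was run. UMIs were summed per library and class or zone and tested with edgeR 4.0.16 in R 4.3.3, by its robust quasi-likelihood method after TMM scaling. Genes were kept by filterByExpr (count 10, total 15). A gene was called where p, adjusted after Benjamini and Hochberg over all genes, was under 0.05. An alternative used DESeq2 1.42.0. Shares were compared by exact permutation tests in scipy. Libraries of 1 label differed by more than sampling noise (chi-square per degree of freedom at least 5.68). On simulated counts the fits were tested with known changes. The genes and lists were chosen with earlier results of these data known. Listed genes are named as up to 4 per list by log2 fold change, among called genes with at least 20 CPM under 1 label and no overlap of libraries, and genes alike in course as 5 per member, of which 1 is not reported here. Pdx1, S100g, Slc40a1, Fabp6, Slc10a2, Klf5, Cdx1, Gata4, genes named as called without values, and hormones were named after their values were seen where the rule did not name them.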

Additional observations from a re-analysis of the deposited data

Results flagged for a closer look

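The rise of Alpi from the bottom to the top of the villus differed between the labels by the test of the difference itself. The log2 difference was larger by 0.48 in the libraries labelled IE-HuR-/- (SE 0.0824, edgeR adjusted p = 9.17e-06), with a log2 difference between top and bottom of 1.25 in the control libraries and of 1.74 in the others. The call was lost with zones from top landmarks only (0.15, edgeR adjusted p = 0.433) and with thinned cells (0.35, 0.0731). Without TMM scaling the difference was smaller, at 0.30 (edgeR adjusted p = 0.00452). Landmarks of the score differed by label within zones, so that a zone need not be the same place under both labels. The spread of single libraries was not examined for outliers, since each label had 3.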

How the results depend on the processing

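The fall of Akp3 in enterocytes and the rise of Alpi along the villus kept their direction and call under all 20 and all 15 alternatives run, with ranges of -3.89 to -2.12 and 0.98 to 2.39 (log2). The Akp3 share by label stayed lower under all 15, between -5.60 and -1.40 percentage points. Alpi by label was -0.070 in cells with a Fabp6 UMI (edgeR adjusted p = 0.225) and 0.021 in cells without a Pdx1 UMI. Akp3 along the villus was 0.23 with 3 zones, 0.29 without Apoa4, 0.20 with a stricter limit on UMIs per cell, 0.17 without TMM scaling and -2.71 with bottom landmarks only. The Alpi zone difference was 0.15 with top landmarks only and 0.35 with thinned cells. That of Akp3 was 1.25 with bottom landmarks only and 0.75 with thinned cells. The Akp3 share along the villus was 0.0631 with top landmarks only and -1.69 with thinned cells (exact p = 0.0625). The called RNAs numbered 7427, and 2185 in the fewer cells with a Pdx1 UMI. The cause of these shifts was not tested.

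Leaving out 1 library gave -0.19 to -0.079 for Alpi, -3.23 to -2.92 for Akp3 and -3.20 to -2.73 points for its share. Along the villus it gave 1.44 to 1.55 for Alpi, 0.37 to 0.61 for Akp3 and -0.99 to -0.67 points for the share, whose test cannot pass 0.0625 with 5 libraries. The zone difference was 0.45 to 0.56 for Alpi and -0.63 to 0.10 for Akp3, and 6810 to 7233 RNAs were called.

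Replicate numbers are shared by both labels, but no pair of same-numbered libraries deviated together (correlations -0.0766 to 0.0226). With the replicate block Alpi was -0.12, Akp3 -3.05 (SE 0.0713) and 7386 RNAs were called, and no member's call changed. Without TMM scaling 1849 RNAs were higher and 6248 lower, against 3713 and 3714 with it. Alpl was too low for any test. Few Akp3 UMIs in the libraries labelled IE-HuR-/- limit its zone course, and few Gip-led cells limit Alpl.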
